A study of Rattus norvegicus with 24 samples.

Results

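The comparison asks how far the response of INS-1 cells to GLP-1 and to BMS-21 changed between 1 h and 6 h of treatment. A response is the log2 ratio of an agent to Control at one time, and the change of response is the ratio at 6 h minus the ratio at 1 h, an interaction of agent with time. Its members are all 24 libraries of the series, whose whole read counts were joined by Ensembl identifier and normalised together. INS-1 cells are an insulin-secreting line from a rat insulinoma. The cells of every group were kept for 90 min at 3 mM glucose and then moved to fresh medium at 11 mM glucose with the agent. The 6 groups of 4 libraries are Control, which received the vehicle DMSO, GLP-1 at 100 nM and BMS-21 at 1 µM, each for 1 h or 6 h, so all groups share the step from low to high glucose. BMS-21 is known here only by its code name, and the doses of the agents differ. The labels do not say that the 4 replicates of a group were separate cultures, so p-values measure the spread between these samples.

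GLP-1 is a gut hormone that raises glucose-stimulated insulin secretion through its receptor on beta cells. The receptor couples to Gs and adenylyl cyclase, and the resulting cAMP activates protein kinase A, which phosphorylates CREB on cAMP response elements in promoters. CREB induces immediate early genes such as Fos and Nr4a1 within an hour, among them genes whose products brake the signal again, including the CREM repressor, the kinase SIK1, phosphodiesterases, RGS proteins and MAP kinase phosphatases. Slower programmes, such as those for hormone processing and cell growth, follow over hours.

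The libraries held 10667350 to 13148970 recovered reads, and 13114 of 26404 genes had enough reads to be tested. The beta-cell check set Ins1, Ins2, Iapp, Pdx1, Mafa, Nkx6-1, Slc2a2 and Glp1r was detected in all 24 libraries. It summed to between 15190 and 19330 CPM (reads scaled to the normalised size of each library). Of 16 markers of other islet, exocrine, duct, stromal and immune cells, 4 had enough reads to be tested, Gcg, Ghrl, Sox9 and Cftr. The 16 summed to 10.2 to 13.8 CPM in the Control groups, 13.2 to 17.0 CPM with GLP-1 and 13.9 to 19.3 CPM with BMS-21. None of the 4 passed the test of the change of response to either agent, and Irx2 was at 0 in all 24 libraries. As these are bulk samples, fewer cells of a kind and less RNA per cell cannot be told apart.

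The most negative changes included early transcription factor genes, with GLP-1 taking Fosb from 35.2-fold above Control at 1 h to 1.85-fold at 6 h and Nr4a1 from 20.1-fold to 2.59-fold. The most positive included the genes of a synaptic vesicle protein and a growth factor receptor, Sv2c going from 0.939-fold to 6.65-fold of Control and Igf1r from 1.02-fold to 3.86-fold. With GLP-1 the change of response passed the test for 2303 of 13114 genes (17.6%), 1109 higher (8.46%) and 1194 lower (9.1%), by edgeR's quasi-likelihood test with Benjamini-Hochberg adjustment under 0.05. With BMS-21 it passed for 2858 genes (21.8%), 1417 higher (10.8%) and 1441 lower (11%). Changes of at least 2-fold were 80 higher and 123 lower with GLP-1, and 112 higher and 138 lower with BMS-21. Both agents were set against the same Control libraries, so their changes are given side by side and not as support for each other. The first component of the libraries within groups, with 20.0% of the variance, parted replicates 1 and 2 from 3 and 4. Within replicates 1 and 2 alone the counts were 2005 and 2259, and within replicates 3 and 4 alone 1563 and 2241, for GLP-1 and BMS-21.

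The changed genes were sorted by whether they differed from Control at each time, since a negative change can be a rise that fades, a fall that appears or grows, or a turn, and a positive one the reverse. A faded rise was higher than Control at 1 h with a negative change, without being called lower at 6 h. This class held 197 genes with GLP-1 (1.5% of those tested) and 179 with BMS-21 (1.36%), and their median response went from 0.81 to 0.21 and from 0.82 to 0.16 on the log2 scale. Of these, 97 and 76 were still called higher than Control at 6 h, so a faded rise was smaller at 6 h but not always gone. A late rise had no call at 1 h and was higher at 6 h, and held 855 (6.52%) and 1094 genes (8.34%). A late fall had no call at 1 h and was lower at 6 h, and held 896 (6.83%) and 1146 genes (8.74%). Smaller classes were faded falls, with 97 (0.74%) and 112 genes (0.854%), and grown rises, higher at both times and more so at 6 h, with 61 (0.465%) and 69 (0.526%). Grown falls, lower at both times and more so at 6 h, numbered 11 (0.0839%) and 27 (0.206%). Turned genes, called in opposite directions at the 2 times, numbered 53 (0.404%) and 54 (0.412%), and 133 (1.01%) and 177 changed genes (1.35%) had no such calls. With the replicate number as a block, faded falls numbered 171 and 187, grown rises 137 and 141, grown falls 35 and 71 and turned genes 113 and 119. Late rises and late falls together made up most of the changed genes with either agent.

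**Figure D1:**
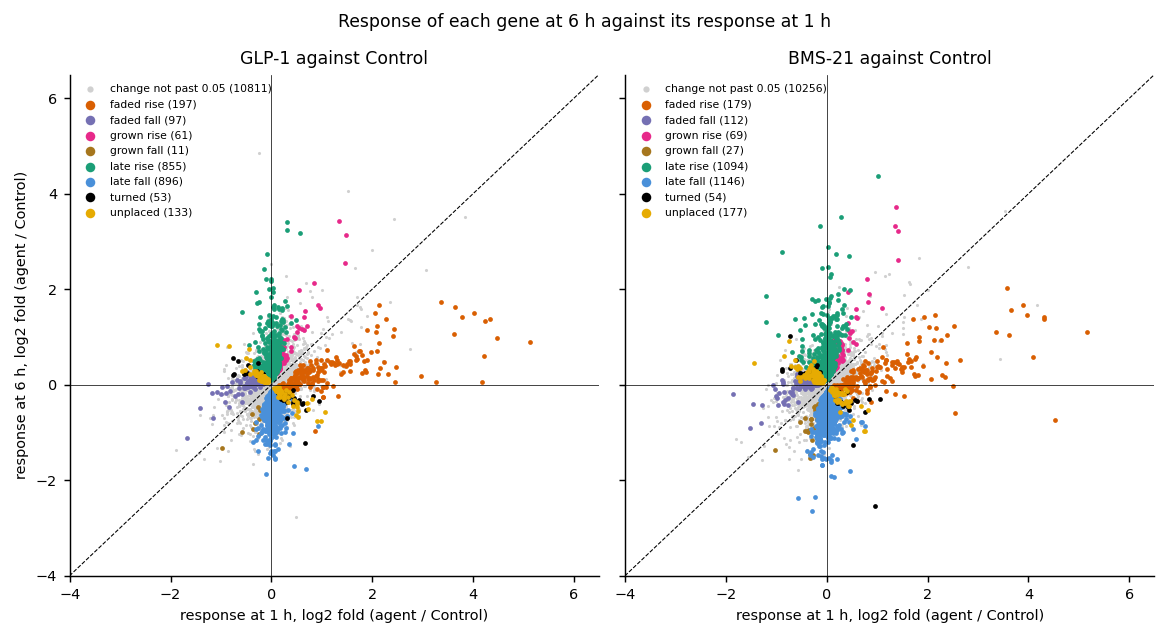
Response at 6 h (vertical axis) against response at 1 h (horizontal axis), both as log2 fold of agent over Control, for the 13114 genes tested, with GLP-1 on the left and BMS-21 on the right. Grey points did not pass the test of the change, coloured points are the response classes with their number of genes, and the dashed line marks equal responses. Faded rises lie along the horizontal axis and late rises along the vertical one.

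Of the 113 genes that GLP-1 raised at least 2-fold at 1 h, 75 were faded rises, 3 grown rises, and in 35 the change did not pass the test. Of the 104 raised at least 2-fold by BMS-21, 73 were faded rises, 5 grown rises, 1 was turned and in 25 the change did not pass. Still called and at least 2-fold above Control at 6 h were 39 and 37 of these genes. The 1 h response enters both the choice of these genes and their change, so these shares are descriptive.

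RefSeq promoters, on build GRCr8, are shown here for named faded rise genes with a full cAMP response element, with named late rise genes beside them. The letters TGACGTCA were searched on both strands from 250 bases before to 50 after each gene start, a window of 300 bases. This palindrome also holds its shorter core, TGACG or CGTCA, so every promoter with the full element counts among those with a core. A promoter was matched by symbol for 50 of the 68 genes named by the rule given under processing, and the full element was found in 3, Btg2, Dusp1 and Gpr6. Of 19 named faded rise genes with GLP-1, 15 were matched and only 2, Btg2 and Dusp1, held it. Fosb, Nr4a1, Per1 and Sik1 were matched and lacked it. Of 26 named late or grown rise genes with GLP-1, 19 were matched and 0 held it. The 250 bases before the start follow, 5′ to 3′ on the gene's strand, with the element in capitals. Btg2 lies on the minus strand (chr13:48087691-48087940), Dusp1 on the plus strand (chr10:17184603-17184852), and Sv2c (chr2:29163169-29163418) and Mylk (chr11:79498575-79498824) on the minus strand.
Btg2: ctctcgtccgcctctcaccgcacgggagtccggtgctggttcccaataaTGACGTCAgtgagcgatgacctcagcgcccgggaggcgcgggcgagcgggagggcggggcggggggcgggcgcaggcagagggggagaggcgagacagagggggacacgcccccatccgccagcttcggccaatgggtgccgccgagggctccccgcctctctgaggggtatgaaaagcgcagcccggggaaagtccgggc
Dusp1: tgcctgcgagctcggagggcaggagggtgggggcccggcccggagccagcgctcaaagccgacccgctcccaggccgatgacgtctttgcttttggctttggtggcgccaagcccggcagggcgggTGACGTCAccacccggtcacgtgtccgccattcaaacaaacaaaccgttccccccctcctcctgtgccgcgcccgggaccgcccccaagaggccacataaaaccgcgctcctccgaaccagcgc
Sv2c: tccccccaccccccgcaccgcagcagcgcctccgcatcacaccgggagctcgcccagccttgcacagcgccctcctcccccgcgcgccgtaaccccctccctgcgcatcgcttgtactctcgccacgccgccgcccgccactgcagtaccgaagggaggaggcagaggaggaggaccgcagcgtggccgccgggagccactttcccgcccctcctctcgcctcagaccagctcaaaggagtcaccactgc
Mylk: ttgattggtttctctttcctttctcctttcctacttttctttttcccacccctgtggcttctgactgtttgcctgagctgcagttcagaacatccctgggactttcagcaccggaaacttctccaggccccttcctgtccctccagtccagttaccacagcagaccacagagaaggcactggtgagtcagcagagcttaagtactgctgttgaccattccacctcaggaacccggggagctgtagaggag
The element began 201 bases before the start in Btg2, 124 in Dusp1 and 93 in Gpr6, and the Sv2c and Mylk windows held neither it nor a core. The full element was held by 1.83% of all 33469 promoters listed, and by 3.34% of the 8104 matched to tested genes. Among matched faded rise genes the share was 16 of 129 (12.4%) with GLP-1 and 17 of 121 (14.0%) with BMS-21, and among late rise genes 2.46% and 2.57%. Among grown rises it was 3 of 42 (7.14%) and 3 of 47 (6.38%), and among turned genes 3.03% and 5.56%. The core was present in 56.6% and 61.2% of faded rise promoters, 35.2% and 34.3% of late rise promoters and 32.7% of those of tested genes. Grown rise promoters held it in 42.9% and 44.7%, and those of turned genes in 51.5% and 36.1%. A match describes these letters in this window and is not a measured binding site.

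Of 26 immediate early genes tested, which include Btg2 and Arc beside transcription factor genes, 15 were faded rises with either agent. The change was negative for 16 and positive for 3 with GLP-1, and negative for 16 and positive for 7 with BMS-21, against 9.1% and 8.46% of all genes with GLP-1 and 11% and 10.8% with BMS-21. The median change was -1.08 and -1.05, where that of all genes tested was 0.00028 and -0.00052. At 1 h, 18 of the 26 were higher than Control with either agent, beside 4.2% of all genes with GLP-1 and 3.77% with BMS-21. At 6 h, 13 and 15 were higher, beside 15.8% and 17.6%.

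Fosb encodes a partner of JUN in the AP-1 factor and was the faded rise with the most negative change of the named genes. Its level at 1 h was 2.21, 1.96, 2.19 and 2.52 CPM in Control, 77.3, 82.8, 76.7 and 77.0 with GLP-1 and 80.5, 89.4, 76.7 and 74.4 with BMS-21. At 6 h it was 0.915, 0.497, 0.725 and 0.571 CPM in Control, 0.826, 1.00, 1.74 and 1.49 with GLP-1 and 1.74, 1.67, 1.33 and 1.19 with BMS-21. Every treated library was far above Control at 1 h, and by 6 h all groups were below the 1 h Control libraries, with GLP-1 and Control overlapping. The change was -4.25 ± 0.38 (SE, n = 4 per group) on the log2 scale with GLP-1 (edgeR adjusted p = 4.52e-10) and -4.06 ± 0.37 with BMS-21 (adjusted p = 7.22e-10).

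Nr4a1 encodes an orphan nuclear receptor that is induced by cAMP in many cells. The 4 Control libraries at 1 h held 38.4, 37.8, 37.9 and 39.7 CPM, those with GLP-1 780.1, 750.4, 795 and 764 and those with BMS-21 791, 720.1, 765 and 789.9. By 6 h the levels were 11.7, 11.6, 12.9 and 13.1 CPM in Control, 37.3, 29.5, 28.6 and 32.1 with GLP-1 and 34.6, 31.0, 31.1 and 32.2 with BMS-21. The treated libraries were above all Control libraries of their own time at both times, but at 6 h they lay below every Control library of 1 h. Its ratio to Control went from 20.1-fold to 2.59-fold with GLP-1 and from 19.9-fold to 2.61-fold with BMS-21, a change of -2.96 ± 0.10 and -2.93 ± 0.10 (log2 ± SE, edgeR adjusted p = 7.48e-21 and 8.98e-21). Its relatives Nr4a3 and Nr4a2 changed by -3.61 ± 0.31 and -2.90 ± 0.16 with GLP-1, and by -3.52 ± 0.31 and -2.91 ± 0.16 with BMS-21.

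Fos held 5.39, 4.76, 4.87 and 4.52 CPM in Control at 1 h against 62.6, 69.4, 76.6 and 59.7 with GLP-1, and 2.44, 2.57, 2.58 and 2.69 against 5.87, 7.28, 7.60 and 6.75 at 6 h. With BMS-21 it held 70.2, 74.7, 83.5 and 64.0 CPM at 1 h and 8.29, 8.51, 8.72 and 7.17 at 6 h. Treated and Control libraries did not overlap at either time, and the response to GLP-1 shrank from 13.7-fold to 2.67-fold. Fosl2 and Junb, which encode other AP-1 subunits, changed by -2.52 ± 0.20 and -2.11 ± 0.08 (log2 ± SE) with GLP-1 and by -2.51 ± 0.20 and -2.13 ± 0.08 with BMS-21. Btg2, a growth-restraining partner of mRNA deadenylases whose promoter is shown above, fell back from 500.1 ± 31.6 CPM (SD, n = 4) at 1 h to 85.7 ± 5.17 at 6 h with GLP-1, where Control held 101 ± 11.8 and 72.9 ± 3.33.

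Other members went the opposite way. Myc, the growth-promoting factor, was lower than Control at 1 h, at -0.87 with GLP-1 and -0.88 with BMS-21 (log2), and close to Control at 6 h, at -0.04 and 0.05, a change of 0.84 ± 0.22 and 0.93 ± 0.22 (edgeR adjusted p = 0.00813 and 0.00257). Klf10, a TGF-beta-inducible repressor, and Ier5 were faded falls as well, with changes of 0.38 and 0.46 with GLP-1. The change of Jun, at -0.42 ± 0.20 and -0.23 ± 0.20, and of the stress-responsive Atf3, at -0.37 ± 0.19 and -0.14 ± 0.19, did not pass the test (adjusted p = 0.158, 0.466, 0.192 and 0.657). Myc, Klf10, Ier5, Jun and Atf3 fall outside the naming rule and were chosen after their values were seen, as were all genes below that are not in the plot of named genes.

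**Figure D2:**
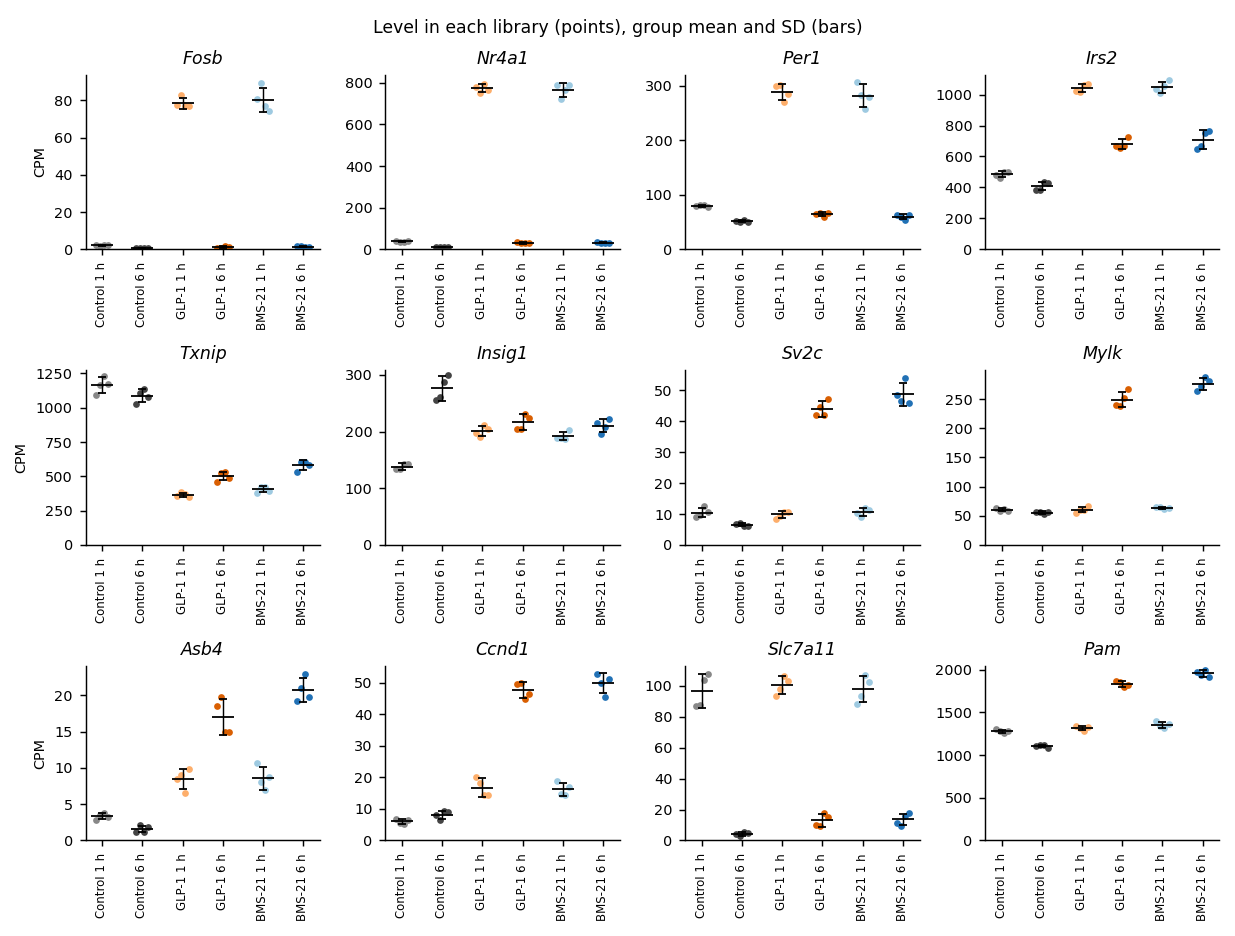
Level in CPM of 12 genes in each of the 24 libraries (points), with the group mean and SD (bars, n = 4), on linear axes from 0. Fosb, Nr4a1 and Per1 peak at 1 h with either agent, Sv2c, Mylk and Pam are highest in the treated groups at 6 h, and Slc7a11 falls in all groups but less with the agents.

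Known targets of CREB and its CRTC coactivators included faded, grown and late rises. Of 21 tested, 10 were faded rises with either agent, 2 were grown rises, and 2 with GLP-1 and 4 with BMS-21 were late rises. The change was thus negative for 10 and positive for 4 with GLP-1, beside 9.1% and 8.46% of all genes, and negative for 10 and positive for 6 with BMS-21, beside 11% and 10.8%. Their median change was -0.32 and -0.17. At 6 h 16 and 18 of the 21 were above Control, beside 15.8% and 17.6% of all genes, with a median response of 0.95 and 0.92. None of the 21 was below Control at either time with either agent.

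The faded rises included brakes on the signal. Rgs2, which speeds the shut-off of G proteins, went from 12.4-fold above Control at 1 h to 2.08-fold at 6 h with GLP-1, with 95.8, 85.6, 79.9 and 74.9 CPM falling to 14.4, 14.0, 12.3 and 10.1. With BMS-21 the same gene held 91.5, 84.2, 74.1 and 82.8 CPM and then 12.8, 12.9, 12.6 and 12.2, where Control held 6.62, 6.04, 7.71 and 6.78 and 7.01, 5.80, 5.07 and 6.44. All treated libraries exceeded all Control libraries of the same time, with a change of -2.57 ± 0.18 and -2.56 ± 0.18 for the 2 agents. Sik1 encodes a salt-inducible kinase that holds CRTC coactivators out of the nucleus, and its change was -2.0 ± 0.11 with GLP-1 and -2.10 ± 0.11 with BMS-21 (edgeR adjusted p = 8.01e-15 and 1.96e-15). Sik1 was still 3.11-fold and 2.95-fold above Control at 6 h.

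Crem encodes CREB-related activators and the repressor ICER, which these gene-level counts do not separate. It held 88.4, 87.9, 94.1 and 102 CPM in Control at 1 h, 435, 411, 318 and 419 with GLP-1 and 429, 381, 292 and 419 with BMS-21. Levels at 6 h were 72.9, 80.8, 82.2 and 88.5 CPM in Control, 203, 200.04, 170.0 and 184 with GLP-1 and 197, 195, 169 and 184 with BMS-21. Treated and Control libraries did not overlap at either time, while the 2 agents overlapped, and the response to GLP-1 went from 4.26-fold to 2.33-fold. Per1, a clock gene with cAMP-responsive transcription, went from 3.62-fold to 1.24-fold with GLP-1 and from 3.52-fold to 1.15-fold with BMS-21, a change of -1.55 ± 0.08 and -1.61 ± 0.08 (log2 ± SE).

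Irs2, the insulin receptor substrate that carries survival signalling in beta cells, was a faded rise with a small change. At 1 h its libraries held 481, 463, 503 and 499 CPM in Control, 1023, 1014, 1064 and 1068 with GLP-1 and 1036, 1007, 1055 and 1093 with BMS-21. At 6 h they held 387, 384, 436 and 431 CPM in Control, 669, 658, 665 and 729 with GLP-1 and 646, 668, 753 and 766 with BMS-21. Treated and Control libraries stayed apart at both times, and the change was -0.37 ± 0.07 and -0.32 ± 0.07 (edgeR adjusted p = 1.81e-04 and 8.16e-04).

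Fst, the gene of follistatin, which binds activin, was 3.84 above Control at 1 h and 3.52 at 6 h with GLP-1 (log2), and its change of -0.32 ± 0.56 did not pass the test (adjusted p = 0.767). Grown rises were Stc1, a secreted glycoprotein, at 1.28 ± 0.09 and 1.42 ± 0.09, and Vgf, a granule peptide precursor, at 0.64 ± 0.05 and 0.65 ± 0.05. Pde10a encodes a phosphodiesterase that degrades cAMP and cGMP, and its 6 h libraries held 111, 115, 112 and 118 CPM in Control, 255, 291, 285 and 278 with GLP-1 and 285, 318, 335 and 326 with BMS-21. At 1 h the ranges overlapped, at 179.9 to 204 CPM in Control, 171 to 186 with GLP-1 and 173 to 188 with BMS-21. Its change was 1.37 ± 0.07 and 1.55 ± 0.07 (edgeR adjusted p = 6.39e-16 and 2.26e-17). Pde4b, a cAMP-specific phosphodiesterase, changed by 0.82 ± 0.22 with BMS-21 (adjusted p = 0.00596). Its value with GLP-1, 0.49 ± 0.21, missed the threshold (adjusted p = 0.110) and passed it with the replicate number as a block (adjusted p = 0.0440). The difference between the agents for Pde4b was 0.33 (95% interval -0.06 to 0.72), and with replicates 3 and 4 alone the change with BMS-21 was 0.45 (adjusted p = 0.278).

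Genes that make, carry or restrain the cAMP signal, phosphodiesterases and an RGS protein among them, divided evenly. The change was positive for 7 and negative for 7 of 28 tested with each agent, a share of 50.0% beside 17.6% and 21.8% of all genes. Pde1c, a calmodulin-dependent phosphodiesterase, was a late rise with the most positive change of the list, at 1.29 ± 0.10 with GLP-1 and 1.33 ± 0.10 with BMS-21. Its 6 h levels were 20.3 ± 1.63 CPM (SD, n = 4) in Control, 49.1 ± 1.74 with GLP-1 and 47.9 ± 3.07 with BMS-21. Adcy1, a calmodulin-stimulated adenylyl cyclase, was a late fall with the most negative change. It held 23.5, 24.1, 23.3 and 22.1 CPM in Control, 24.8, 25.1, 24.6 and 26.2 with GLP-1 and 19.7, 24.8, 22.5 and 21.2 with BMS-21 at 1 h. At 6 h the values were 26.5, 26.8, 23.9 and 24.2 in Control, 13.6, 14.0, 12.6 and 13.7 with GLP-1 and 12.9, 13.1, 11.3 and 11.3 with BMS-21. At 1 h the libraries with GLP-1 lay above and those with BMS-21 overlapped Control, and at 6 h all treated libraries lay below every Control library, with a change of -1.03 ± 0.10 and -0.98 ± 0.10 (edgeR adjusted p = 1.47e-09 and 4.87e-09). Rgs16, another RGS brake, was a faded rise at -0.78 ± 0.07 and -0.88 ± 0.07. Gnas, the Gs alpha subunit, and Adcy8 gained, by 0.51 and 0.60 with GLP-1, and the catalytic PKA subunit Prkacb was a grown fall at -0.29.

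MAP kinase phosphatase, Sprouty and Spred genes, which restrain ERK and related kinases, changed upward more often than downward. Of 15 tested the change was positive for 9 and negative for 3 with GLP-1, beside 8.46% and 9.1% of all genes, and positive for 10 and negative for 3 with BMS-21, beside 10.8% and 11%. Of those with a positive change, 2 were faded falls and 1 turned with either agent, and the others were grown or late rises. Their median change was 0.50 and 0.63. The 3 with a negative change were the faded rises Dusp1, Dusp10 and Dusp8. Dusp1, a nuclear phosphatase whose promoter is shown above, held 242, 252, 245 and 214 CPM with GLP-1 and 256, 261, 250.4 and 231 with BMS-21 at 1 h, over 84.9, 85.1, 77.0 and 77.1 in Control. At 6 h it held 113, 119, 124 and 108 CPM and 115, 121, 134 and 127, over 84.5, 84.7, 87.9 and 86.8 in Control. Treated and Control libraries did not overlap at either time, while the 2 agents overlapped, and the change was -1.12 ± 0.08 and -1.09 ± 0.08. In contrast Dusp6, an ERK-specific phosphatase, was at 0.01 at 1 h and 1.28 at 6 h with GLP-1, a change of 1.28 ± 0.17 (edgeR adjusted p = 1.37e-06) and of 1.51 ± 0.17 with BMS-21. In Control cells Dusp6 fell by 1.41 on the log2 scale from 1 h to 6 h. Spry2, a Sprouty inhibitor of receptor signalling, turned from -0.46 to 0.42 with GLP-1 and from -0.61 to 0.53 with BMS-21.

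Sv2c encodes a synaptic vesicle glycoprotein and was a late rise with the most positive change of the named genes. Its level at 1 h was 8.98, 9.78, 12.6 and 10.5 CPM in Control, 8.53, 9.49, 10.7 and 10.7 with GLP-1 and 10.3, 9.15, 11.9 and 11.3 with BMS-21. At 6 h Control held 6.86, 7.21, 6.28 and 6.04 CPM, GLP-1 42.1, 44.5, 42.1 and 47.2 and BMS-21 48.4, 46.5, 54.1 and 45.8. The 1 h groups overlapped, and all 8 treated libraries at 6 h were several times higher than any Control library, with a change of 2.82 ± 0.14 and 2.85 ± 0.14 (edgeR adjusted p = 7.77e-16 and 4.72e-16). Of this, -0.67 was the change of Sv2c in Control from 1 h to 6 h, entering with opposite sign.

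Camk4, Mylk and Camk2d, which encode kinases that calmodulin activates, were late rises as well. Camk4, a kinase that can phosphorylate CREB, was at 22.3 to 24.3 CPM in Control at 1 h, 21.6 to 23.2 with GLP-1 and 19.3 to 26.1 with BMS-21. At 6 h it held 21.6, 20.1, 20.1 and 21.0 CPM in Control, 98.0, 95.5, 93.4 and 96.7 with GLP-1 and 111, 110.3, 124 and 109.6 with BMS-21. Its change was 2.23 ± 0.09 with GLP-1 and 2.43 ± 0.09 with BMS-21. Mylk, myosin light chain kinase, held 63.2, 59.0, 61.2 and 58.0 CPM in Control, 55.2, 60.1, 60.1 and 66.0 with GLP-1 and 65.0, 65.7, 61.4 and 64.0 with BMS-21 at 1 h, and at 6 h 56.8, 56.4, 52.3 and 56.5 CPM in Control, 241, 238, 252 and 267 with GLP-1 and 264, 273, 288 and 281 with BMS-21. For both genes the groups overlapped at 1 h, and at 6 h the treated libraries lay several-fold above every Control library. The change of Mylk was 2.17 ± 0.07 and 2.23 ± 0.07, and that of Camk2d, a CaM kinase II subunit gene, 1.60 ± 0.10 and 1.77 ± 0.10.

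Igf1r, the receptor for insulin-like growth factor, combined a gain with the agents and a drop in Control. It held 87.5, 87.0, 96.3 and 87.0 CPM in Control, 84.2, 95.9, 89.1 and 95.5 with GLP-1 and 85.4, 91.1, 98.2 and 98.1 with BMS-21 at 1 h. By 6 h Control held 42.7, 47.5, 42.9 and 39.4 CPM, while GLP-1 held 163, 164, 166 and 173 and BMS-21 185, 195, 243 and 200.1. The 6 h groups were fully apart, with a change of 1.92 ± 0.09 and 2.20 ± 0.09, of which -1.05 was the change in Control from 1 h to 6 h, entering with opposite sign. Tmem163, a zinc-binding vesicle membrane protein gene, did likewise, with 1.59 ± 0.08 and 1.77 ± 0.08 and a Control change of -1.18.

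The insulin and IGF signalling list had little else that passed the test. Of its 17 tested members 1 rose, Igf1r, and 1 fell, Igfbp3, an IGF binding protein gene, with either agent, a share of 11.8% beside 17.6% and 21.8% of all genes. Igfbp3 changed by -0.26 ± 0.07 and -0.35 ± 0.07 (edgeR adjusted p = 0.0124 and 6.76e-04). The change with GLP-1 was -0.17 (adjusted p = 0.197) in replicates 1 and 2 alone, and that with BMS-21 was -0.26 (adjusted p = 0.0625) in replicates 3 and 4 alone.

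Some genes were already raised at 1 h and were raised further at 6 h. Asb4, an ankyrin repeat and SOCS box protein gene, held 2.78, 3.57, 3.73 and 3.22 CPM in Control at 1 h, 8.53, 8.99, 6.53 and 9.83 with GLP-1 and 10.7, 8.02, 6.93 and 8.73 with BMS-21. At 6 h it held 1.14, 2.07, 1.21 and 1.88 CPM in Control, 18.5, 19.7, 15.0 and 14.9 with GLP-1 and 19.2, 21.0, 23.0 and 19.7 with BMS-21. Treated and Control libraries were apart at both times, and the response went from 2.55-fold to 10.8-fold with GLP-1, a change of 2.09 ± 0.27. Of this, -1.08 was the change of Asb4 in Control from 1 h to 6 h, entering with opposite sign. Rxfp3, a relaxin-family peptide receptor gene, went from 6.90 ± 0.635 CPM to 25.5 ± 2.98 with GLP-1 and from 6.59 ± 1.42 to 27.1 ± 1.91 with BMS-21 (SD, n = 4), over 2.47 ± 0.174 and 2.89 ± 0.546 in Control.

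**Figure D3:**
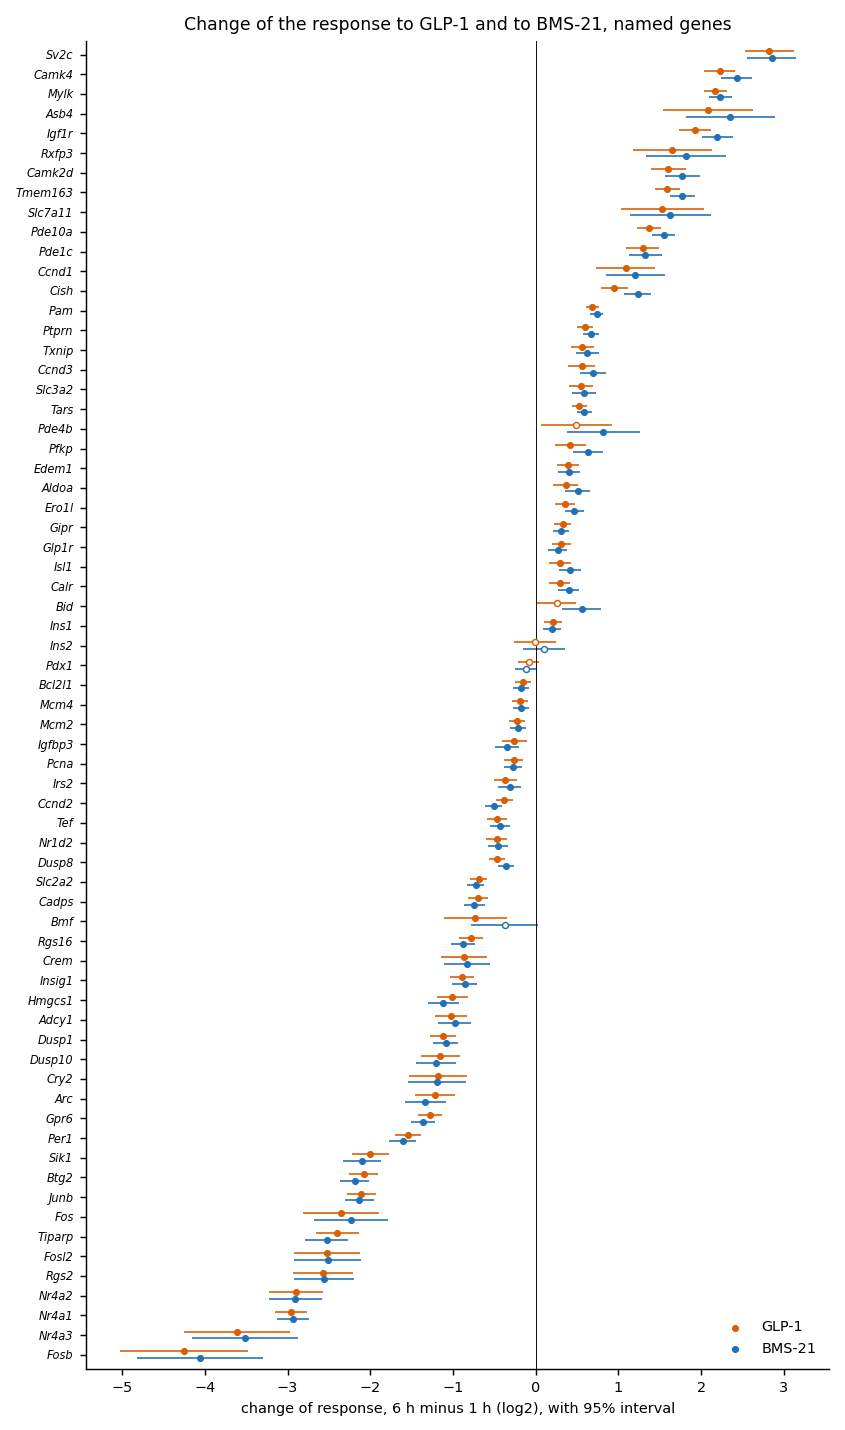
Change of response from 1 h to 6 h (log2) of 67 of the 68 named genes with GLP-1 (orange) and BMS-21 (blue), ordered by the value with GLP-1. Lines are 95% intervals, and filled points passed the test at an adjusted p under 0.05. The 2 agents' intervals overlap for every gene shown, from Sv2c at the top to Fosb at the bottom. Both use the same Control libraries, so this overlap does not test the difference between the agents, which is given in the text.

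Ccnd1, the cyclin that opens the G1 phase, was a grown rise among the G1 genes. Its libraries held 6.94, 5.53, 5.36 and 6.61 CPM in Control, 20.2, 18.1, 14.4 and 14.3 with GLP-1 and 18.9, 14.8, 14.3 and 16.8 with BMS-21 at 1 h. At 6 h they held 8.00, 6.38, 9.26 and 8.97 CPM in Control, 49.5, 49.9, 44.9 and 46.5 with GLP-1 and 52.8, 49.9, 45.5 and 51.3 with BMS-21. All treated libraries exceeded Control at both times, and the ratio went from 2.75-fold to 5.84-fold with GLP-1 and from 2.65-fold to 6.11-fold with BMS-21. Ccnd3 gained as well, by 0.55 ± 0.08 and 0.69 ± 0.08, and Ccnd2 was a late fall, at -0.38 ± 0.05 and -0.51 ± 0.05 (edgeR adjusted p = 8.51e-07 and 3.13e-09). Over the 14 tested G1 genes the change was positive for 2 and negative for 3 with GLP-1, a share of 35.7% beside 17.6% of all genes, and positive for 3 and negative for 3 with BMS-21, 42.9% beside 21.8%. Mycn was far below Control at both times with GLP-1, at -1.44 and -1.44, and its change of 0.0038 ± 0.17 did not pass the test (adjusted p = 0.992).

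Of 21 DNA replication and mitosis genes the change was positive for 0 and negative for 5 with either agent, with a median of -0.07 and -0.10. The share of 23.8% was near the 17.6% and 21.8% of all genes. The 5 were Pcna, the polymerase clamp, and the helicase subunit genes Mcm2, Mcm3, Mcm4 and Mcm6. Pcna changed by -0.27 ± 0.06 and -0.28 ± 0.06 and turned from 0.16 to -0.11 with GLP-1. Mcm2 changed by -0.22 ± 0.05 and -0.22 ± 0.05 and Mcm4 by -0.19 ± 0.05 and -0.17 ± 0.05, the latter with BMS-21 at -0.13 (edgeR adjusted p = 0.149) in replicates 1 and 2 alone. Over the same hours 20 of the 21 rose in Control, beside 26.1% of all genes, and the median of the list was 0.66.

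Sterol and fatty acid synthesis genes changed downward. With either agent the change was negative for 16 of 25 tested members and positive for 0, beside 9.1% and 8.46% of all genes with GLP-1 and 11% and 10.8% with BMS-21, with a median of -0.28. With GLP-1 9 of the 16 were late falls, 6 turned and 1 was a faded rise, and with BMS-21 11 were late falls, 4 turned and 1 was a faded rise. In Control, 23 of the 25 rose from 1 h to 6 h, beside 26.1% of all genes, with a median of 0.64. At 1 h, 7 members were above Control and 1 below with GLP-1, beside 4.2% and 2.59% of all genes. With BMS-21 the counts at 1 h were 5 above and 2 below, beside 3.77% and 2.51%. At 6 h, 1 was above and 19 below with GLP-1, beside 15.8% and 15.6% of all genes. With BMS-21 the counts at 6 h were 1 above and 21 below, beside 17.6% and 16.9%.

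Insig1, which retains the sterol sensor SCAP in the endoplasmic reticulum, held 134, 133, 143 and 143 CPM in Control, 198, 189.5, 211 and 205 with GLP-1 and 189, 188, 187 and 203 with BMS-21 at 1 h. By 6 h the libraries held 256, 260.1, 287 and 300.05 CPM in Control, 204, 204, 231 and 224 with GLP-1 and 216, 196, 208 and 222 with BMS-21. All treated libraries were above Control at 1 h and all were below it at 6 h. From 1 h to 6 h the difference was 1.00 in Control, 0.11 with GLP-1 and 0.14 with BMS-21 (log2). The change was -0.89 ± 0.07 with GLP-1 and -0.86 ± 0.07 with BMS-21 (edgeR adjusted p = 4.50e-11 and 9.32e-11). Hmgcs1, HMG-CoA synthase, held 60.6, 57.0, 60.3 and 59.4 CPM in Control, 73.6, 71.0, 74.7 and 73.3 with GLP-1 and 69.7, 69.9, 66.3 and 70.8 with BMS-21 at 1 h, and at 6 h 190.1, 192, 218 and 233 CPM in Control, 116, 113, 138 and 143 with GLP-1 and 108, 113, 107 and 119.8 with BMS-21. The treated libraries were above Control at 1 h and below it at 6 h, but the 1 h call with BMS-21 missed the threshold. Its level was 1.63-fold and 1.86-fold lower than Control at 6 h. Acaca, the first enzyme of fatty acid synthesis, was a late fall at -0.64 ± 0.07 and -0.71 ± 0.07, and the change of Fasn, at -0.02 ± 0.05 and -0.09 ± 0.05, did not pass the test (adjusted p = 0.857 and 0.225).

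Other named genes that turned were Gpr6, Arc and Cish. Gpr6, an orphan receptor that raises cAMP, held 98.7, 105, 92.7 and 90.5 CPM in Control at 1 h, 184, 194, 193 and 172 with GLP-1 and 201, 204, 205 and 195 with BMS-21. Levels at 6 h were 91.6, 92.3, 86.7 and 83.7 CPM in Control, 72.2, 73.4, 67.8 and 66.6 with GLP-1 and 69.3, 76.7, 66.3 and 74.1 with BMS-21. The treated libraries were all above Control at 1 h and all below it at 6 h, with a change of -1.28 ± 0.07 and -1.36 ± 0.07. Arc, a synaptic plasticity gene, turned the same way, with 42.1 ± 4.34 CPM at 1 h and 17.5 ± 1.87 at 6 h with GLP-1 (SD, n = 4) over 26.1 ± 3.50 and 25.4 ± 1.11 in Control, and a change of -1.22 ± 0.12 and -1.33 ± 0.12. Cish, a suppressor of cytokine receptor signalling, turned in the opposite direction. It was 1.68-fold lower than Control at 1 h and 1.15-fold of Control at 6 h with GLP-1, and 1.86-fold lower and then 1.26-fold with BMS-21. Its change was 0.95 ± 0.08 and 1.23 ± 0.08 (edgeR adjusted p = 1.13e-10 and 2.37e-13).

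Endoplasmic reticulum chaperone, folding and degradation genes were mostly late rises, 16 of 20 tested with GLP-1 and 17 with BMS-21. Among all genes late rises were 6.52% and 8.34%. The change was negative for 1 with either agent, beside 9.1% and 11% of all genes, and the median change was 0.36 and 0.43. None of the 20 differed from Control at 1 h with either agent. Of all genes, 4.2% were higher and 2.59% lower at 1 h with GLP-1, and 3.77% and 2.51% with BMS-21. At 6 h 18 and 19 of the 20 were above Control, beside 15.8% and 17.6% of all genes. The member that fell was Ero1lb, an endoplasmic reticulum oxidase gene, at -0.31 ± 0.09 and -0.30 ± 0.09. Its relative Ero1l gained 0.35 ± 0.06 and 0.47 ± 0.06, Calr, the chaperone calreticulin, 0.29 ± 0.06 and 0.40 ± 0.06, and Edem1, which directs misfolded proteins to degradation, 0.39 ± 0.06 and 0.40 ± 0.06. For Hspa5, the chief chaperone of the compartment, the change was 0.35 ± 0.11 and 0.45 ± 0.11 (edgeR adjusted p = 0.0253 and 0.00319). These gains were under 2-fold each, and Control itself rose by a median of 0.32 over the same hours.

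Genes of the integrated stress response, serine synthesis and amino acid supply fell in Control between 1 h and 6 h. All 28 tested members did so, beside 27.1% of all genes, with a median of -1.86. The change of response was positive for 12 and negative for 1 with GLP-1, beside 8.46% and 9.1% of all genes, and positive for 18 and negative for 1 with BMS-21, beside 10.8% and 11%, with a median of 0.18 and 0.24. Slc7a11, the cystine transporter subunit gene, held 86.8, 87.6, 104 and 108 CPM in Control, 93.3, 98.0, 107 and 103 with GLP-1 and 88.4, 93.0, 107 and 102 with BMS-21 at 1 h. By 6 h it was down to 4.12, 2.82, 5.23 and 5.14 CPM in Control, 9.83, 9.37, 17.7 and 15.2 with GLP-1 and 11.6, 9.57, 15.8 and 17.5 with BMS-21. The 1 h groups overlapped, and at 6 h every treated library exceeded every Control library although all were far below their 1 h level. The change was 1.53 ± 0.24 and 1.63 ± 0.24, from a time course of -4.47 in Control, -2.94 with GLP-1 and -2.85 with BMS-21.

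Slc3a2, which encodes the partner chain of that transporter, changed by 0.55 ± 0.07 and 0.58 ± 0.07, and Tars, threonyl-tRNA synthetase, by 0.53 ± 0.04 and 0.59 ± 0.04 (edgeR adjusted p = 1.58e-10 and 1.17e-11). Atf4, the central factor of the stress response, changed by 0.28 ± 0.05 and 0.34 ± 0.05. Psph, the last enzyme of serine synthesis, was the member that fell, at -0.27 ± 0.07 and -0.33 ± 0.07.

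Beta-cell identity and glucose sensing genes changed in both directions, with a positive change for 9 and a negative one for 6 of 23 with either agent, a share of 65.2% beside 17.6% and 21.8% of all genes. Slc2a2 encodes GLUT2, the glucose transporter of rodent beta cells, and was a late fall. At 1 h it held 1737, 1815, 1703 and 1772 CPM in Control, 1772, 1822, 1702 and 1831 with GLP-1 and 1806, 1863, 1729.6 and 1867 with BMS-21. Levels at 6 h were 1752, 1834, 1725 and 1798 CPM in Control, 1078, 1162, 1086 and 1146 with GLP-1 and 1118, 1171, 1082 and 1076 with BMS-21. The groups overlapped at 1 h, and at 6 h the 2 agents overlapped each other and lay below every Control library, with a change of -0.69 ± 0.05 and -0.72 ± 0.05 (edgeR adjusted p = 3.23e-12 and 7.87e-13). Mafa, an activator of the insulin genes, was a faded rise, from 0.85 to 0.09 with GLP-1 and from 0.80 to 0.22 with BMS-21.

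The incretin receptor genes Glp1r and Gipr were late rises of small size. Glp1r, the receptor of GLP-1, was at 152 ± 5.24 CPM in Control, 148 ± 7.47 with GLP-1 and 148 ± 4.08 with BMS-21 at 1 h (SD, n = 4), and at 107 ± 3.34 CPM in Control, 129 ± 4.52 with GLP-1 and 125 ± 5.89 with BMS-21 at 6 h. It fell over time in all groups, less with the agents, so that its change was 0.31 ± 0.06 and 0.26 ± 0.06 (edgeR adjusted p = 1.62e-04 and 9.35e-04). Gipr, the receptor of the incretin GIP, changed by 0.33 ± 0.05 and 0.31 ± 0.05. Isl1, an islet transcription factor, gained 0.29 ± 0.06 and 0.41 ± 0.06, the former being 0.20 (adjusted p = 0.174) in replicates 3 and 4 alone.

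Insulin transcripts changed little. Ins1 and Ins2 are closely similar copies, so reads may have been divided between them uncertainly. Ins1 changed by 0.21 ± 0.05 with GLP-1 and 0.20 ± 0.05 with BMS-21 (edgeR adjusted p = 0.00402 and 0.00554), the latter being 0.08 (adjusted p = 0.287) in replicates 1 and 2 alone. Ins2 held 1316, 1314, 1626 and 1324 CPM in Control, 1265, 1224, 1422 and 1472 with GLP-1 and 1359.6, 1332, 1469 and 1467 with BMS-21 at 1 h, and at 6 h 1300.5, 1308, 1357 and 1268 CPM in Control, 1287, 1147, 1252 and 1322 with GLP-1 and 1154, 1199, 1825 and 1482 with BMS-21. Its groups overlapped, and its change of -0.01 ± 0.13 and 0.10 ± 0.13 did not pass the test (adjusted p = 0.968 and 0.641). With BMS-21 the change of Ins2 was -0.18 (adjusted p = 0.00998) in replicates 1 and 2 alone and 0.34 (adjusted p = 0.0123) in replicates 3 and 4 alone, so its sign depended on the replicates. Pdx1, a master factor of beta cells, was at -0.08 ± 0.06 and -0.12 ± 0.06 and did not pass either (adjusted p = 0.413 and 0.199).

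Granule cargo and exocytosis genes changed upward more often than downward. The change was positive for 10 and negative for 2 of 23 with GLP-1, beside 8.46% and 9.1% of all genes, and positive for 11 and negative for 2 with BMS-21, beside 10.8% and 11%, with a median change of 0.18 and 0.21. Pam, the enzyme that amidates peptide hormones, held 1299, 1277, 1259 and 1278 CPM in Control, 1345, 1318, 1283 and 1329 with GLP-1 and 1401, 1340.3, 1317 and 1360.3 with BMS-21 at 1 h. By 6 h the levels were 1102, 1123, 1113 and 1083 CPM in Control, 1863, 1855, 1792 and 1822 with GLP-1 and 1971, 1942, 2001 and 1912 with BMS-21. All 8 treated libraries at 6 h were above every other library of the series, and the change was 0.69 ± 0.04 and 0.74 ± 0.04 (edgeR adjusted p = 8.20e-15 and 1.06e-15). Ptprn, a granule membrane protein gene, gained 0.59 ± 0.05 and 0.67 ± 0.05, and Snap25, a core protein of vesicle fusion, 0.63 ± 0.07 and 0.63 ± 0.07. Cadps, a priming factor for dense-core granules, was a late fall, at -0.70 ± 0.06 and -0.74 ± 0.06, and Syt13 was the other.

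Among glucose uptake, glycolysis and carbohydrate-response genes the change was positive for 5 and negative for 2 of 16 with GLP-1, beside 8.46% and 9.1% of all genes, and positive for 7 and negative for 2 with BMS-21, beside 10.8% and 11%. Txnip, a glucose-induced arrestin that is strongly expressed under high glucose, was a faded fall. It held 1093, 1169, 1230.2 and 1175 CPM in Control at 1 h, 353, 384, 373 and 349 with GLP-1 and 379, 423, 424 and 394 with BMS-21. After 6 h it held 1026, 1108, 1139 and 1075 CPM in Control, 462, 523, 533 and 491 with GLP-1 and 529, 607, 606 and 586 with BMS-21. Treated libraries stayed below every Control library, and the ratio went from 3.20-fold to 2.16-fold lower with GLP-1 and from 2.88-fold to 1.87-fold lower with BMS-21. Its relative Arrdc4 was -0.66 and then -0.67 with GLP-1, and its change of -0.01 ± 0.08 did not pass the test (adjusted p = 0.944). Pfkp, a phosphofructokinase gene, gained 0.42 ± 0.09 and 0.63 ± 0.09, and Aldoa, aldolase, 0.36 ± 0.07 and 0.51 ± 0.07.

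Clock genes changed downward more often than upward. The change was negative for 7 and positive for 2 of 14 with GLP-1, beside 9.1% and 8.46% of all genes, and negative for 7 and positive for 4 with BMS-21, beside 11% and 10.8%, with a median of -0.37 and -0.33. Of the 7, 6 were late falls and 1 was a faded rise with either agent. Cry2, a clock repressor, was a faded rise, from 3.47-fold to 1.54-fold with GLP-1 and a change of -1.18 ± 0.17 and -1.19 ± 0.17. Nr1d2 and Tef, which act in the clock's output loops, were late falls, at -0.47 ± 0.06 and -0.46 ± 0.06 with GLP-1 and -0.46 ± 0.06 and -0.43 ± 0.06 with BMS-21. Arntl and Npas2, which encode activators of the clock, were late rises, at 0.53 ± 0.09 and 0.79 ± 0.16 with GLP-1 and 0.45 ± 0.09 and 0.75 ± 0.16 with BMS-21.

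Of 10 apoptosis and survival genes tested, the change was positive for 0 and negative for 2 with GLP-1, and positive for 1 and negative for 1 with BMS-21. The share of 20% with either agent was near the 17.6% and 21.8% of all genes. Bcl2l1, which encodes the survival protein BCL-XL, changed by -0.15 ± 0.05 and -0.17 ± 0.05 (edgeR adjusted p = 0.0193 and 0.00624). Without GLP-1 6 h replicate 2 the value with GLP-1 was -0.13 (adjusted p = 0.0509). Bmf, a pro-death member of the BCL2 family, changed by -0.73 ± 0.19 with GLP-1 (adjusted p = 0.00519) and was at -0.38 ± 0.20 with BMS-21 (adjusted p = 0.184). For Bid, another pro-death gene, the change was 0.55 ± 0.12 with BMS-21 (adjusted p = 6.81e-04), and 0.25 ± 0.12 with GLP-1 missed the threshold (adjusted p = 0.147). The difference between the agents did not pass for either gene, at 0.36 (95% interval -0.06 to 0.77) for Bmf and 0.30 (0.06 to 0.54) for Bid.

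**Figure D4:**
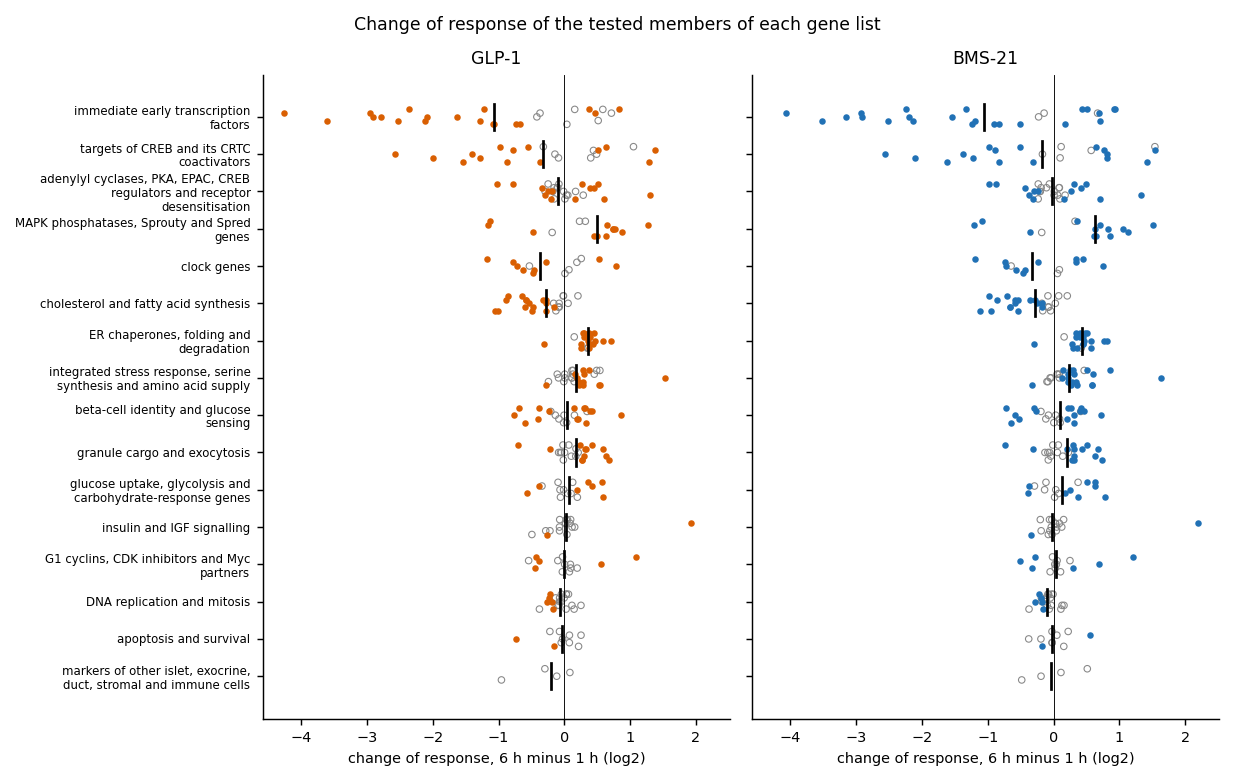
Change of response from 1 h to 6 h (log2) of each tested member of the 16 gene lists, with GLP-1 on the left and BMS-21 on the right. Filled points passed the test, open points did not, and the black bar is the median of the list. Immediate early genes spread farthest to the left, the median of the cholesterol and fatty acid list lies left of 0 and that of the endoplasmic reticulum list right of it.

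The change of response itself was compared between the agents by their direct difference, in which Control cancels. No gene passed the test, 0 of 13114 by edgeR, with 505 genes (3.85%) at an unadjusted p under 0.05. DESeq2 called 0, with 320 genes at an unadjusted p under 0.05, and limma 0, with 523. The doses differ, 100 nM against 1 µM, so the test compares the agents as given. Of the 3235 genes past the threshold with GLP-1 or BMS-21, 3111 (96.2%) had a 95% interval of the difference within 2-fold in either direction, and 2826 (87.4%) within 1.5-fold. For Nr4a1 the difference, BMS-21 minus GLP-1, was 0.03 (95% interval -0.13 to 0.18), for Crem 0.04 (-0.22 to 0.29) and for Sv2c 0.03 (-0.23 to 0.29). For Igf1r it was 0.28 (0.10 to 0.46), for Cish 0.28 (0.11 to 0.45) and for Camk4 0.21 (0.03 to 0.38), intervals that leave out 0 before adjustment over all genes. The interval of Fosb, -0.30 to 0.69, was wider than those of these genes.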

How the data were processed

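RNA of INS-1 cells, 24 libraries, was sequenced with an unstranded TruSeq kit, per the labels' protocols. The submitters' processing notes name genome build Rnor_5.0, TopHat2 2.0.12, Bowtie2 2.2.3.0, SAMtools 0.1.19.0, Subread and DESeq2 1.6.3, without their roles. The deposited signal values are read counts per gene divided by a size factor within each of 6 tables of 8 libraries. All 1267392 values were whole multiples of 1 read's worth (tolerance 0.001), so whole reads were recovered, and 0 of 633696 values seen in 2 tables differed. Symbols are those of the tables.

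The 24 libraries were fitted together with edgeR 4.0.16 (R 4.3.3), with TMM scaling, the filterByExpr filter (smallest count 10), group means, no block, and Benjamini-Hochberg adjustment with a threshold of 0.05. SE is the log2 change divided by the root of F. CPM uses TMM-scaled library sizes, and 3 reads, taken as the floor of detection, equal 0.228 to 0.281 RPM. Checks used DESeq2 1.42.0 and limma 3.58.1 and scripts were tested on simulated data. Same-numbered libraries of the Control and GLP-1 groups had deviations from their group means that correlated at 0.126 to 0.241 in all 24 pairs. These include pairs between times within a treatment. Differently numbered libraries correlated at -0.210 to 0.159, and all 16 libraries correlated best with their own number. The numbers were thus taken to pair these libraries, although the labels do not say what a number shares. The main fit had no block, and counts with a block are given apart. Among replicates of a group, counts differed by more than sampling noise in all 36 pairs (chi-square per degree of freedom 1.30 to 5.45).

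Named genes are, per agent, up to 8 with the largest change in each direction among genes past the threshold with at least 50 mean reads, a symbol and the same sign in all 4 replicate numbers, up to 4 turned genes, up to 3 per list by adjusted p, and 12 genes taken in any case (Fos, Nr4a1, Crem, Per1, Irs2, Pde4b, Glp1r, Ins1, Ins2, Pdx1, Txnip and Ccnd1). Of the 68 genes the rule names, 1 is not reported here. The 16 lists have 359 members. Of these 305 were tested, 24 symbols were absent, 2 had 2 identifiers and 28 had too few reads. The members and lists were chosen with earlier results of these data known. Without strand, reads of overlapping antisense genes cannot be told apart.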

Additional observations from a re-analysis of the deposited data

Results flagged for a closer look

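A value is named here where its gap to the nearest of the other 3 in its group of 4 was large against the range of the group (Dixon's test at the 95% level). Chance gives such a gap in about 1 in 20 groups. Of 180 groups of 4 libraries, for the 30 genes whose values were printed by library or as a range or mean, 8 held one. Of 136 sets of 4 changes by replicate number, for the 68 named genes with each agent on the log2(CPM + 1) scale, 11 held one.

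Camk4 was at 21.6 CPM in GLP-1 1 h replicate 3, with the other replicates at 23.1 to 23.2. Camk4 was at 124 CPM in BMS-21 6 h replicate 3, with the other replicates at 109.6 to 111. Mylk was at 52.3 CPM in Control 6 h replicate 3, with the other replicates at 56.4 to 56.8. Igf1r was at 96.3 CPM in Control 1 h replicate 3, with the other replicates at 87.0 to 87.5. Fosb was at 82.8 CPM in GLP-1 1 h replicate 2, with the other replicates at 76.7 to 77.3. Insig1 was at 203 CPM in BMS-21 1 h replicate 4, with the other replicates at 187 to 189. Irs2 was at 729 CPM in GLP-1 6 h replicate 4, with the other replicates at 658 to 669. Ins2 was at 1626 CPM in Control 1 h replicate 3, with the other replicates at 1314 to 1324.

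Camk4 changed with BMS-21 by 2.77 in replicate 3 and by 2.21 to 2.29 in the others. Mylk changed with BMS-21 by 2.44 in replicate 3 and by 2.10 to 2.16 in the others. Igf1r changed with GLP-1 by 1.63 in replicate 2 and by 1.97 to 2.03 in the others. Tmem163 changed with BMS-21 by 1.57 in replicate 1 and by 1.80 to 1.82 in the others. Fosl2 changed with BMS-21 by -1.87 in replicate 3 and by -2.75 to -2.60 in the others. Junb changed with BMS-21 by -2.31 in replicate 3 and by -2.07 to -2.02 in the others. Slc2a2 changed with BMS-21 by -0.82 in replicate 4 and by -0.70 to -0.69 in the others. Pam changed with BMS-21 by 0.78 in replicate 3 and by 0.72 to 0.73 in the others. Cadps changed with GLP-1 by -0.60 in replicate 1 and by -0.73 to -0.71 in the others. Ccnd2 changed with BMS-21 by -0.46 in replicate 4 and by -0.53 to -0.52 in the others. Bid changed with BMS-21 by 0.83 in replicate 2 and by 0.40 to 0.44 in the others. In each of these 11 sets the 4 changes had the same sign. The causes were not tested.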

How the results depend on the processing

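The counts of changed genes, 2303 with GLP-1 and 2858 with BMS-21, stayed within 1.5 times under other size factors, library totals, no filter or a stricter one, DESeq2, limma at both pseudocounts and the 16 libraries of each comparison alone. The split by direction moved with library totals, to 957 higher and 1328 lower with GLP-1 and 1164 higher and 1664 lower with BMS-21. Asking for a change of at least 1.5-fold as well left 606 and 773. Leaving out 1 library at a time gave 1989 to 2345 genes with GLP-1 and 2482 to 2856 with BMS-21, and 0 to 0 for the difference between the agents. A replicate block took the counts to 3312 and 3843, and the difference between the agents passed for 3 genes, Cited2 (0.41), Diras2 (0.45) and Trim24 (-0.36). The block changed no other call of the genes named by the rule but that of Pde4b. Among Control and BMS-21 libraries the correlation of same-numbered libraries was 0.0586 to 0.271, with 4 of 24 pairs at or under 0.1, so the numbers were not taken to pair them, although 13 of 16 libraries correlated best with their own number. Replicates 1 and 2 alone also gave 3 genes for the difference, RT1-A2 (-0.51), ENSRNOG00000043314 (-0.76) and 1 gene with a mean of 3.75 reads. The smaller classes moved most, with grown falls at 6 to 12 genes with GLP-1 and 12 to 32 with BMS-21 when 1 library was left out, and at 25 and 43 with library totals. The block gave 35 and 71 grown falls, 137 and 141 grown rises, 171 and 187 faded falls and 113 and 119 turned genes, each more than 1.5 times the unblocked count.

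Ins2 turned sign with 7 of the 24 left-out libraries for GLP-1 (-0.094 to 0.0394) and with 1, BMS-21 6 h replicate 3, for BMS-21 (-0.0454 to 0.187), and was at -0.18 with BMS-21 in replicates 1 and 2 alone. Bcl2l1 with GLP-1 missed the threshold with no filter (adjusted p = 0.0785 by edgeR) and in replicates 3 and 4 alone (0.178), and with BMS-21 in replicates 3 and 4 alone (0.157). Bmf missed it with GLP-1 in replicates 1 and 2 alone (0.0576) and 3 and 4 alone (0.0534), and Bid with BMS-21 in replicates 3 and 4 alone (0.0667). The causes were not tested. At 10667350 reads or more per library, genes with too few reads were not tested, but some tested genes lay near the floor of detection. Cftr was tested with 3 reads or fewer in 2 libraries. Small changes of rare transcripts may have been missed at this depth.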
